A study of Mus musculus with 6 samples.

Results

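The 10 genes described here encode the core of MHC class I antigen presentation in the mouse: *H2-K1*, *H2-D1*, *B2m*, *Tap1*, *Tap2*, *Tapbp*, *Psmb8*, *Psmb9*, *Psmb10* and *Nlrc5*. They were chosen by symbol, and 10 of 10 were found among the 24062 genes counted. The study asked what deletion of the transcription factors *Runx1* and *Runx3* does in a mouse model of neurofibroma, a benign nerve tumor. RNA-seq libraries from 6 mice were compared. In 3 of them *Nf1* is floxed and DhhCre is carried, and the labels of the other 3 add floxed *Runx1* and *Runx3*; the groups are called *Nf1*fl/fl;DhhCre and labelled *Runx*-floxed here. By the study's methods *Nf1*fl/fl and DhhCre are shared by both groups and only the second also has *Runx1*fl/fl and *Runx3*fl/fl, although the genotype label of the second group leaves *Nf1*fl/fl out. The strain background is given as C57BL/6-I129 and the age of these mice is not given in the labels. No drug treatment is given for either group. The tissue is dorsal root ganglion (DRG) with tumor, labelled as DRG for one group and as neurofibroma for the other, so genotype and labelled tissue cannot be told apart. The study used Cre under the *Dhh* promoter to delete floxed genes in the Schwann cell lineage. The same tissue also holds macrophages, lymphocytes, fibroblasts, endothelial cells and neurons. Which cells kept intact copies was not measured by the counts.

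MHC class I molecules display short peptides from proteins inside the cell to CD8 T cells. The proteasome cuts the proteins, the transporter TAP moves the peptides into the endoplasmic reticulum, and tapasin helps to load them on a heavy chain paired with beta-2 microglobulin. Interferon gamma raises most of these genes together, through IRF1 and the coactivator NLRC5. Nearly all nucleated cells can make class I molecules, leukocytes carry high levels of them, and resting neurons carry little.

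NLRC5 does not bind DNA itself and acts through proteins on a conserved promoter module whose parts include an X2 box and a Y box, so the stretches of the heavy chain promoters that hold both are shown. The sequences are from RefSeq on GRCm38.p6 and run 5′ to 3′ on the strand of the gene. Capitals mark TGACGC, the core of the X2 box, and ATTGG, the Y box CCAAT read on the other strand. The *H2-K1* stretch lies at chr17:34000359-34000388 on the minus strand, 41 to 12 bases before the RefSeq start, and the *H2-D1* stretch at chr17:35262993-35263022 on the plus strand, 101 to 72 bases before it, where it also lies in the first exon of another GENCODE transcript of *H2-D1*.
H2-K1: TGACGCgcagtcagctcttacccccATTGG
H2-D1: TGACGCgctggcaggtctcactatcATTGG

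The *H2-K1* and *H2-D1* stretches were identical at 23 of 30 positions, and in both the motifs start 25 bases apart. That spacing and orientation occurred in 9 of 32851 RefSeq promoters (0.0274%), which belong to 8 genes. Of these, 3 are class I genes of chromosome 17 (*H2-K1*, *H2-D1* and *H2-M3*). The spacing was taken from the *H2-K1* stretch, so the match of *H2-K1* was fixed in advance. The *B2m* promoter is shown because it held the core of the interferon response element, GAAANNGAA, at chr2:122147538-122147648 on the plus strand, 149 to 39 bases before the start. Its capitals mark that core and the Y box, again as ATTGG.
B2m: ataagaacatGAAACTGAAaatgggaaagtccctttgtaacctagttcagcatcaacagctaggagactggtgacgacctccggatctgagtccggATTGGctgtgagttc

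RefSeq promoters were matched for 8 of 10 members, all but *Tap2* and *Nlrc5*. Both strands of the 250 bases before each start were searched, and no motif was required to be free of another. All 250 bases lay in annotated exons for *H2-D1*, *Tap1*, *Tapbp*, *Psmb8* and *Psmb9*, and 52 did for *Psmb10*. The Y box CCAAT was in 6 of these 8 members and in 33.8% of all promoters. The matches of *Tap1* and *Psmb9* are the same site, since their searched stretches overlap. The X2 core TGACGC was in 2 of 8 and in 6.12% of all promoters, GAAANNGAA in 1 of 8 and in 7.13%, and the gamma activated site TTCNNNGAA in 1 of 8 (*Psmb8*) and in 7.02%. The RUNX motif TGTGGT was in *Tapbp* and *Psmb10*, 2 of 8 members, and in 14% of all promoters. These are matches of letters, and binding was not measured by the counts.

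The deposited counts summed to 13884838 to 16682194 per library in *Nf1*fl/fl;DhhCre and to 12439296 to 15760905 in the libraries labelled *Runx*-floxed. Values below are CPM, read counts scaled to the library total after normalization by trimmed mean of M-values (TMM), and 3 counts amounted to 0.179 to 0.247 CPM. *Runx1* was at 131, 141 and 172 CPM in *Nf1*fl/fl;DhhCre, against 84.0, 78.9 and 185 CPM in the libraries labelled *Runx*-floxed, where replicate 3 was not reduced. Bulk tissue also holds cells outside the Schwann cell lineage, so this value cannot show whether the label of that library is right. The label was kept, and the count of members called is also given without that library. *Runx3* was at 19.9, 15.1 and 29.9 CPM against 13.5, 10.3 and 12.1 CPM, with no overlap. *Nf1*, floxed in both groups, was at 302 ± 30.8 (SD, n = 3) and 290 ± 44.5 CPM (SD, n = 3). By limma-voom with Benjamini-Hochberg (BH) adjustment none of the 3 passed an adjusted p of 0.05 (1 was below an unadjusted p of 0.05, and 0 passed with edgeR and 1 with DESeq2). The adjusted p from limma-voom was 0.370 for *Runx1*, 0.104 for *Runx3* and 0.809 for *Nf1*. Without replicate 3 labelled *Runx*-floxed *Runx1* fell by 0.85 on the log2 scale, against a value of -0.44 with it (limma-voom BH-adjusted p = 0.0290 without it), and without *Nf1*fl/fl;DhhCre replicate 2 *Runx3* fell by 0.99, against -0.79 (limma-voom BH-adjusted p = 0.0430 without that library). Labels and data disagree on which of replicates 2 and 3 labelled *Runx*-floxed came from another sequencing run, and fits without each of the 2 are given below.

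In the libraries labelled *Runx*-floxed, genes for both classical heavy chains, beta-2 microglobulin and the coactivator NLRC5 fell 2.56-fold to 2.94-fold. The transporter subunit *Tap1* and the immunoproteasome subunits *Psmb8* and *Psmb9* had lower values in each of these libraries than in any of the other group but did not pass the test. All 10 members passed the filter on low counts. Differentially expressed genes (DEGs) had an adjusted p below 0.05 and a change of more than 2-fold, by limma-voom with BH adjustment over all genes tested. By this rule 4 of 10 members were lower and 0 higher, where 5.36% of the 15652 genes tested were lower DEGs. The groups did not overlap for 8 of 10 members, all lower, where 20.5% of genes tested had such a pattern. The log2 fold changes of the 10 members ranged from -2.07 to -0.37 with a median of -1.48, and the median of all genes tested was 0.02.

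The number of members past both thresholds depended on the tool and the libraries. It was 7 with edgeR's quasi-likelihood test, with DESeq2 and with limma-voom using sample quality weights, each adding *Tap1*, *Psmb8* and *Psmb9* to the same 4. The share of all genes called as lower DEGs was also higher there, at 6.23%, 7.90% and 6.33%. It was 2 (*H2-D1* and *B2m*) without replicate 3 labelled *Runx*-floxed, the library with the high *Runx1* value, and also without replicate 1 or replicate 2 of that group and without *Nf1*fl/fl;DhhCre replicate 3, and these fits called 2.04% to 3.59% of genes as lower DEGs. Leaving out *Nf1*fl/fl;DhhCre replicate 1 gave 1 (*H2-D1*), in a fit that called 1.13% of genes as lower DEGs, and leaving out replicate 2 of that group gave 7, where 6.45% were called. In each of these fits 10 of 10 members had a negative log2 fold change. At the adjusted p alone, in either direction, 19.28% of all genes passed in the main fit. Without replicates 1, 2 and 3 of *Nf1*fl/fl;DhhCre in turn, 2.39%, 18.85% and 7.54% passed. Without replicates 1, 2 and 3 labelled *Runx*-floxed in turn, 15.3%, 7.45% and 12.7% passed.

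**Figure D1:**
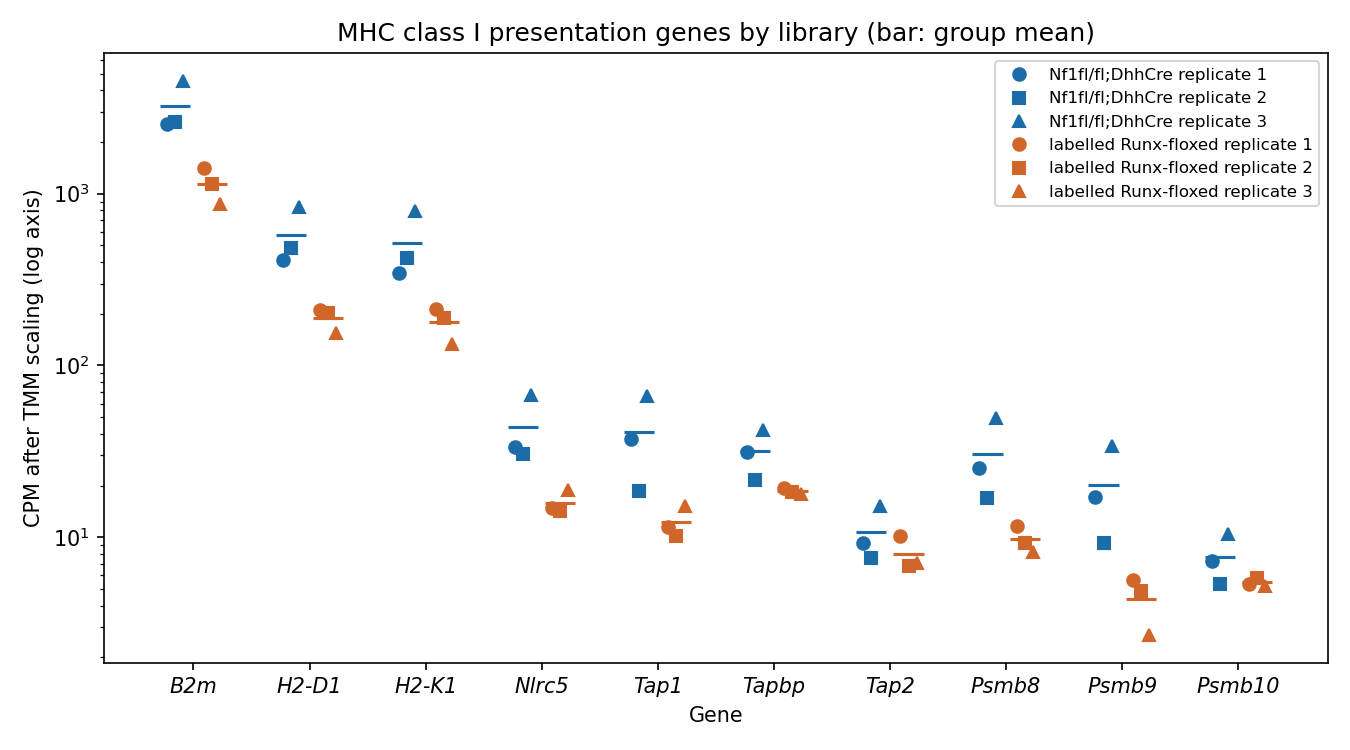
Normalised CPM of the 10 class I genes in each library, on a log axis, for the 3 *Nf1*fl/fl;DhhCre libraries and the 3 libraries labelled *Runx*-floxed; each point is 1 library and each bar the mean of its group. The groups are apart for 8 genes and overlap for *Tap2* and *Psmb10*.

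The heavy chains and their partner form the molecule on the cell surface. *H2-K1*, on the minus strand of chromosome 17 (GRCm38, 33996017 to 34000347), encodes the heavy chain H-2K. It was at 345, 420 and 792 CPM in *Nf1*fl/fl;DhhCre, against 214, 188 and 134 CPM in the libraries labelled *Runx*-floxed. *H2-K1* fell by 1.47 on the log2 scale (SE 0.33, limma-voom BH-adjusted p = 0.0246). The highest library of one group lay below the lowest of the other, and *Nf1*fl/fl;DhhCre replicate 3 was well above the other two of its group. The call on *H2-K1* held in 1 of the 6 fits on 5 libraries, the fit without *Nf1*fl/fl;DhhCre replicate 2, with limma-voom BH-adjusted p from 0.0397 to 0.0663.

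*H2-D1*, on the plus strand of chromosome 17 (35262730 to 35267499), encodes the heavy chain H-2D. It was at 414, 486 and 833 CPM against 210, 203 and 155 CPM, again with no overlap. *H2-D1* fell by 1.55 (SE 0.27, limma-voom BH-adjusted p = 0.0139). Among the members, only *H2-D1* passed both thresholds in all 6 fits on 5 libraries.

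*B2m*, on the plus strand of chromosome 2 (122147686 to 122153083), encodes the light chain that every class I heavy chain needs to reach the surface. Its counts were 36851, 43869 and 70806 in *Nf1*fl/fl;DhhCre, or 2556, 2614 and 4542 CPM, and 17660, 13890 and 13272 in the libraries labelled *Runx*-floxed, or 1407, 1142 and 876 CPM. *B2m* fell 2.78-fold (log2 fold change -1.48, SE 0.27, limma-voom BH-adjusted p = 0.0147). *B2m* lost its call only without *Nf1*fl/fl;DhhCre replicate 1 (limma-voom BH-adjusted p = 0.0539), among fits on 5 libraries. The log2 fold changes of *H2-K1*, *H2-D1* and *B2m* differed from each other by less than the SE of any of them. Class I heavy chain genes are close copies of each other, and how reads that align to several of them were counted is not stated, so the split of reads between *H2-K1*, *H2-D1* and the *H2-Q* genes is uncertain. *B2m* is a single gene and carries no such limit.

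*Nlrc5*, on the plus strand of chromosome 8 (94434356 to 94527272), encodes the coactivator of class I genes. It was at 33.6, 30.4 and 67.0 CPM in *Nf1*fl/fl;DhhCre, against 14.8, 14.1 and 18.9 CPM in the libraries labelled *Runx*-floxed. The groups were apart, and replicate 3 was the highest in both. *Nlrc5* fell 2.56-fold (log2 fold change -1.36, SE 0.35, limma-voom BH-adjusted p = 0.0366). Among the 6 fits on 5 libraries, *Nlrc5* passed both thresholds in 1, without *Nf1*fl/fl;DhhCre replicate 2, and the limma-voom BH-adjusted p ranged from 0.0282 to 0.110. Without *Nf1*fl/fl;DhhCre replicate 3 it passed the adjusted p (limma-voom BH-adjusted p = 0.0414) but not the fold, with a log2 fold change of -0.96.

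The peptide transporter is a pair of half-transporters, TAP1 and TAP2. *Tap1*, on the plus strand of chromosome 17 (34187553 to 34197225), was at 37.5, 18.5 and 66.3 CPM against 11.5, 10.2 and 15.1 CPM. Its lowest *Nf1*fl/fl;DhhCre library, replicate 2, was only just above the highest library labelled *Runx*-floxed. The log2 fold change was -1.54 (SE 0.52, limma-voom BH-adjusted p = 0.0769).

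*Tap2*, next to it on the same strand (34203527 to 34216321), was at 9.29, 7.63 and 15.2 CPM against 10.1, 6.83 and 7.13 CPM, and the groups overlapped. Its log2 fold change was -0.37 (95% interval -1.14 to 0.39, limma-voom BH-adjusted p = 0.457). Within each library the ratio of *Tap1* counts to *Tap2* counts was 4.03, 2.42 and 4.36 in *Nf1*fl/fl;DhhCre and 1.13, 1.49 and 2.12 in the libraries labelled *Runx*-floxed. The ratio was 2.28-fold lower on average with no overlap, and the exact two-sided permutation p was 0.1, the smallest that 3 against 3 libraries can give. This ratio was chosen after the values were seen.

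*Tapbp*, on the plus strand of chromosome 17 (33915899 to 33929292), encodes tapasin, which bridges TAP and the empty class I molecule. It was at 31.6, 21.5 and 42.1 CPM against 19.4, 18.4 and 17.8 CPM, with no overlap. The libraries labelled *Runx*-floxed differed little among themselves (SD 0.820 CPM) and *Nf1*fl/fl;DhhCre varied more (SD 10.3 CPM). The log2 fold change of *Tapbp* was -0.72 (SE 0.27, limma-voom BH-adjusted p = 0.104).

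**Figure D2:**
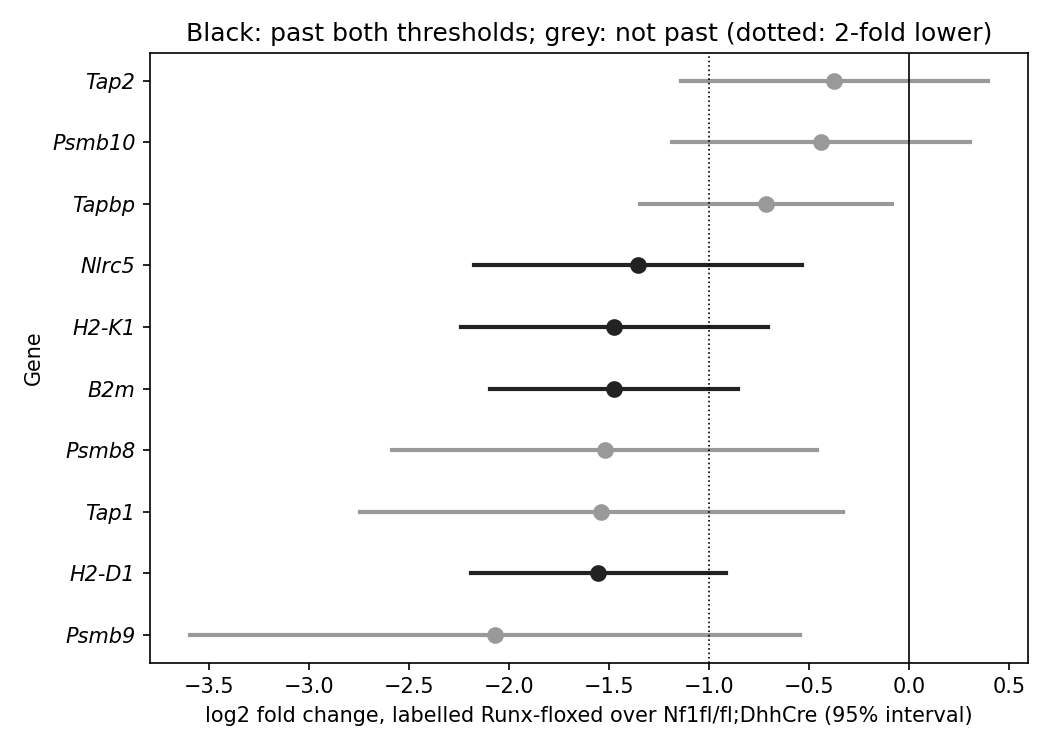
Log2 fold change of each class I gene, labelled *Runx*-floxed over *Nf1*fl/fl;DhhCre, with its 95% interval from limma-voom and the genes past both thresholds set apart by fill. *H2-K1*, *H2-D1*, *B2m* and *Nlrc5* passed, *Psmb9* had the lowest estimate (-2.07) with a wide interval, and the intervals of *Tap2* and *Psmb10* include 0.

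Immunoproteasomes carry 3 catalytic subunits, encoded by *Psmb8*, *Psmb9* and *Psmb10*, in the places of the constitutive subunits encoded by *Psmb5*, *Psmb6* and *Psmb7*, and they cut proteins into peptides that fit class I molecules. *Psmb8*, on the plus strand of chromosome 17 (34197721 to 34201454), was at 25.4, 16.9 and 49.2 CPM in *Nf1*fl/fl;DhhCre, against 11.7, 9.29 and 8.19 CPM in the libraries labelled *Runx*-floxed. The groups did not overlap, and the log2 fold change was -1.52 (SE 0.45, limma-voom BH-adjusted p = 0.0556). *Psmb8* lies between *Tap1* and *Tap2*.

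*Psmb9*, on the minus strand of chromosome 17 (34181987 to 34187764), starts 225 bases from the RefSeq start of *Tap1* and runs the other way. It was at 17.1, 9.23 and 34.0 CPM against 5.66, 4.85 and 2.71 CPM, which in the libraries labelled *Runx*-floxed stand for 71, 59 and 41 reads. Its log2 fold change of -2.07 was the lowest of the members and also had the largest error (SE 0.65, limma-voom BH-adjusted p = 0.0646). The annotated spans of *Psmb9* and *Tap1* overlap, and strand use in counting is not stated.

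*Psmb10*, on the minus strand of chromosome 8 (105935735 to 105938444), is the immunoproteasome gene outside chromosome 17. It was at 7.28, 5.36 and 10.5 CPM against 5.34, 5.84 and 5.22 CPM, and the groups overlapped. Its log2 fold change was -0.44 (95% interval -1.18 to 0.31, limma-voom BH-adjusted p = 0.370).

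Of the constitutive partners, 2 rose. *Psmb5* was at 22.8, 24.7 and 22.6 CPM against 32.7, 36.3 and 33.6 CPM and rose by a log2 fold change of 0.54 (SE 0.14, limma-voom BH-adjusted p = 0.0360). *Psmb7* was at 34.7, 42.4 and 37.5 CPM against 54.7, 75.2 and 60.2 CPM and rose by 0.72 (SE 0.17, limma-voom BH-adjusted p = 0.0283). *Psmb6*, at 16.9, 20.7 and 24.3 CPM against 17.4, 25.6 and 23.7 CPM, did not pass (limma-voom BH-adjusted p = 0.777). The calls held in 1 of the 6 fits on 5 libraries for *Psmb5* (without *Nf1*fl/fl;DhhCre replicate 2) and in 2 for *Psmb7* (without that library or without replicate 1 labelled *Runx*-floxed).

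Ratios of each immunosubunit to the constitutive subunit it replaces were taken within each library, where scaling between libraries has no effect. The count ratio of *Psmb8* to *Psmb5* was 1.11, 0.685 and 2.17 in *Nf1*fl/fl;DhhCre and 0.359, 0.257 and 0.244 in the libraries labelled *Runx*-floxed, 4.18-fold lower on average. The ratio of *Psmb9* to *Psmb6* was 1.02, 0.446 and 1.398 against 0.327, 0.191 and 0.115, 4.45-fold lower. The ratio of *Psmb10* to *Psmb7* was 0.210, 0.127 and 0.281 against 0.0983, 0.0782 and 0.0871, 2.24-fold lower. All 3 ratios were lower in each of the 3 libraries labelled *Runx*-floxed than in any *Nf1*fl/fl;DhhCre library. The exact two-sided permutation p was 0.1 for each, and 0.1 after Benjamini-Hochberg adjustment over the 3 pairs, which is the smallest that 3 against 3 libraries allow. These are ratios of counts, not of counts per length, so only their change between libraries can be read. They mix a change in the numerator with one in the denominator, since *Psmb5* and *Psmb7* rose.

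**Figure D3:**
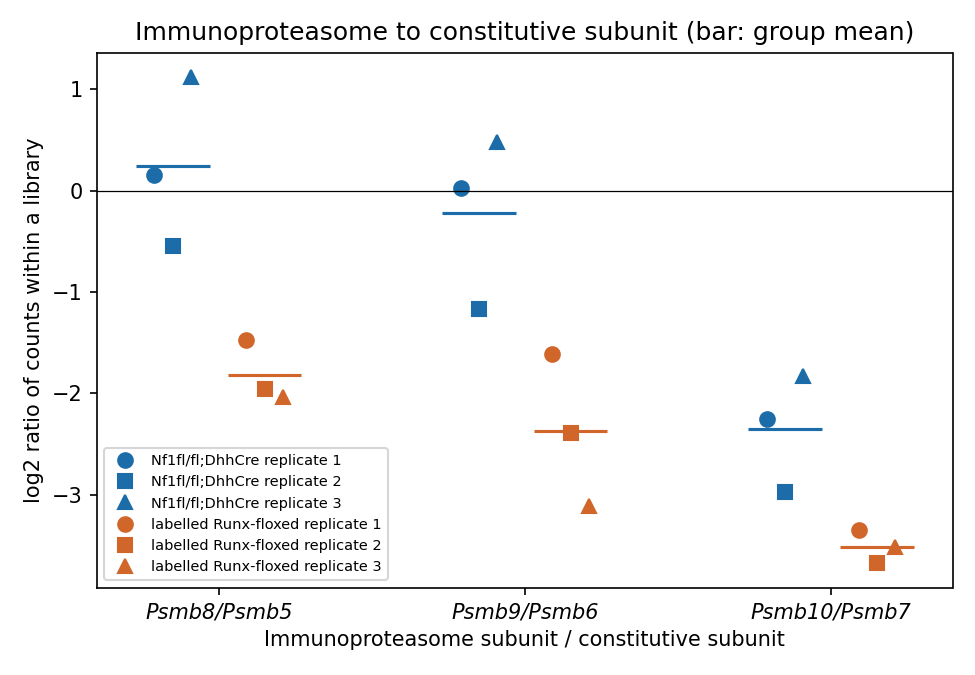
Log2 ratio of counts of each immunoproteasome subunit to the constitutive subunit it replaces, within each library; points are libraries and bars are group means. The libraries labelled *Runx*-floxed sit below each *Nf1*fl/fl;DhhCre library for *Psmb8*/*Psmb5*, *Psmb9*/*Psmb6* and *Psmb10*/*Psmb7*.

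Libraries differed within the groups in a way the members shared. *Nf1*fl/fl;DhhCre replicate 3 had the highest value of the 6 libraries for 10 of 10 members, and replicate 2 had the lowest of its group for 7 of them. Among the libraries labelled *Runx*-floxed, replicate 1 was highest for 7 members and replicate 3 was lowest for 7. The summed CPM of the members was 3476, 3629 and 6451 in *Nf1*fl/fl;DhhCre and 1911, 1603 and 1240 in the libraries labelled *Runx*-floxed. Without *Nf1*fl/fl;DhhCre replicate 3 the median log2 fold change of the members was -1.06.

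Levels of different members were also put on a scale of CPM per kilobase of annotated exon. The length joined the exons of all GENCODE M21 transcripts of a gene, such as 860 bases for *B2m* and 3660 for *Psmb9*. It can exceed the length of the main transcript, and the deposited counts may rest on other gene models. The order below therefore depends on these lengths. *B2m* was highest, with a mean of 3764 CPM per kb in *Nf1*fl/fl;DhhCre and 1328 in the libraries labelled *Runx*-floxed. *H2-D1* and *H2-K1* followed with 224 and 177 against 73.6 and 60.9, and their ranges over the libraries of a group overlapped. In each group the order of these 3 was the same. The other 7 members lay at means of 2.83 to 9.02 CPM per kb in *Nf1*fl/fl;DhhCre and 1.20 to 5.12 in the libraries labelled *Runx*-floxed. *Psmb9* was seventh of 10 in the first group and last in the second. Among these 7 the ranges of neighbours in the order overlapped in *Nf1*fl/fl;DhhCre. In the libraries labelled *Runx*-floxed, *Tapbp* lay above *Psmb10* and *Nlrc5* above *Psmb9* without overlap, and the neighbours between them overlapped.

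Other class I heavy chains were counted too, 16 by name. Of these, 9 were tested, and 3 fell (*H2-Q4*, *H2-T23* and *Mr1*) and 0 rose, where 8.22% of all genes tested were lower and 11.1% higher at an adjusted p below 0.05. Their median log2 fold change was -0.61. *H2-Q4* was at 76.2, 84.7 and 146 CPM against 32.5, 25.2 and 25.6 CPM and fell by 1.83 on the log2 scale (SE 0.29, limma-voom BH-adjusted p = 0.0115). *H2-T23*, which encodes Qa-1, the ligand of NKG2 receptors, was at 58.0, 66.4 and 94.7 CPM against 19.9, 20.8 and 24.2 CPM and fell by 1.72 (SE 0.23, limma-voom BH-adjusted p = 0.00919). Both *H2-Q4* and *H2-T23* passed in all 6 fits on 5 libraries, and *Mr1* and *H2-M3* only in the fit without *Nf1*fl/fl;DhhCre replicate 2. Without replicate 3 labelled *Runx*-floxed, *H2-Q10* and *Cd1d1*, named after their values were seen, rose by 1.72 (limma-voom BH-adjusted p = 0.0471) and 2.43 (limma-voom BH-adjusted p = 0.0291). *Mr1*, which presents vitamin metabolites to MAIT cells, fell by 0.61 (limma-voom BH-adjusted p = 0.0468) and is named for its call, after its values were seen. *H2-M3*, which presents formylated peptides, had a log2 fold change of -1.72 (limma-voom BH-adjusted p = 0.0635). *H2-Q2*, *H2-Q6* and *H2-Q7*, named for this after their values were seen, were listed at 0 in each library, beside close copies that had reads.

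Helpers of peptide loading and trimming work beside tapasin in the endoplasmic reticulum. Of 11 tested, 1 fell and 0 rose, a share near the 8.22% of all genes tested that were lower at an adjusted p below 0.05, and their median log2 fold change was -0.34. *Sec61a1*, a subunit of the channel through the endoplasmic reticulum membrane, fell by 0.70 (limma-voom BH-adjusted p = 0.0168). The chaperone gene *Calr* had a log2 fold change of -0.68 (limma-voom BH-adjusted p = 0.0856) and the trimming peptidase gene *Erap1* had -0.64 (limma-voom BH-adjusted p = 0.0696). The call on *Sec61a1* was lost without *Nf1*fl/fl;DhhCre replicate 1 or 3 and without replicate 2 labelled *Runx*-floxed (limma-voom BH-adjusted p = 0.0592, 0.0523 and 0.0508), and DESeq2 called 4 of the 11 lower.

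Of 9 genes for proteasome activators and assembly factors, 0 passed the limma-voom test in either direction (at an unadjusted p below 0.05, 1 was lower and 1 higher; edgeR called 0, and DESeq2 1, lower). Their median log2 fold change was 0.01. *Psme1*, a subunit of the PA28 activator that interferon gamma raises, was at 125, 113 and 196 CPM against 84.9, 93.5 and 71.1 CPM, apart in the 2 groups, with a log2 fold change of -0.77 (limma-voom BH-adjusted p = 0.0584). Its partner *Psme2* had a log2 fold change of -0.40 (limma-voom BH-adjusted p = 0.443). *Pomp*, which encodes a chaperone of proteasome assembly, was at 72.8, 64.9 and 80.8 CPM against 82.3, 98.3 and 113 CPM, higher with no overlap, with a log2 fold change of 0.43 (limma-voom BH-adjusted p = 0.107). The assembly factor gene *Psmg3*, with 9 to 27 reads per library and overlapping groups, had a log2 fold change of 0.55 (limma-voom BH-adjusted p = 0.540). Among 14 genes of the constitutive 20S core, 3 rose (*Psmb1*, *Psmb5* and *Psmb7*) and 0 fell, where 11.1% of all genes tested were higher, and 14 of 14 had a positive log2 fold change, with a median of 0.28. *Psmb1* rose by 0.55 (limma-voom BH-adjusted p = 0.0396). Fits on 5 libraries called 0 to 2 of the 14 higher, and scaling by library size only called 1. The count was 0 without *Nf1*fl/fl;DhhCre replicate 1 or 3 and without replicate 2 or 3 labelled *Runx*-floxed. It was 1 without replicate 1 labelled *Runx*-floxed. Fits on 5 libraries also passed fewer of all genes, 2.39% to 18.85% in either direction against 19.28%.

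Regulators that act at class I promoters numbered 13, of which 4 fell and 0 rose (8.22% of all genes tested were lower), with a median log2 fold change of -0.47. These 4 changed less than 2-fold. *Nfkb1*, which encodes the p50 subunit of NF-kappaB, fell by 0.76 (limma-voom BH-adjusted p = 0.0186), and *Irf2*, *Creb1* and *Atf1*, named for their calls after their values were seen, fell by 0.53, 0.47 and 0.58. *Rfx5*, a subunit of the complex on the X box, had a log2 fold change of -0.77 (limma-voom BH-adjusted p = 0.0877). *Irf1* was at 21.2, 18.7 and 31.6 CPM against 12.8, 13.7 and 15.5 CPM, apart, and its log2 fold change was -0.72 (limma-voom BH-adjusted p = 0.0814). Fits on 5 libraries called 0 to 3 of the 13 lower, while 2.39% to 18.85% of all genes passed in either direction, against 19.28% before. The count was 0 without *Nf1*fl/fl;DhhCre replicate 1 or 3 and without replicate 2 labelled *Runx*-floxed. It was 1 without replicate 3 labelled *Runx*-floxed and 2 without its replicate 1.

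Of 8 genes of interferon gamma signalling, 6 were tested, and 3 fell and 0 rose (again beside 8.22% of all genes), with a median log2 fold change of -0.74. *Ifngr1* and *Ifngr2*, the 2 chains of the receptor, fell by 1.02 (limma-voom BH-adjusted p = 0.0197) and 0.78 (limma-voom BH-adjusted p = 0.0231). *Ciita*, the class II counterpart of *Nlrc5*, was at 63.6, 27.3 and 103 CPM against 13.5, 5.26 and 12.4 CPM and fell by 2.51 (SE 0.64, limma-voom BH-adjusted p = 0.0355). Fits on 5 libraries called 0 to 4 of these genes lower, and *Ciita* held its call in 1 of the 6. The count was 0 without *Nf1*fl/fl;DhhCre replicate 1 or 3 and without replicate 2 labelled *Runx*-floxed. It was 1 without either other library labelled *Runx*-floxed. The share of all genes passed in either direction was also lower in these fits, 2.39% to 18.85% against 19.28%. *Ifng* itself, also named after its values were seen, had at most 0.164 CPM in any library, under the level of 3 counts.

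Markers of cell types also differed between the groups, and in bulk tissue fewer cells of a type and less RNA per cell cannot be told apart. At an adjusted p below 0.05, 8.22% of all genes tested were lower, the share to set beside the marker counts of the main fit. Fits on 5 libraries passed 2.39% to 18.85% of all genes in either direction, against 19.28% in the main fit. Of 13 macrophage markers 11 fell and 0 rose (1 to 11 in fits on 5 libraries, with 1 without *Nf1*fl/fl;DhhCre replicate 1 and 7 without replicate 2 labelled *Runx*-floxed), with a median log2 fold change of -2.43. The summed macrophage markers were at 1412 to 2896 CPM in *Nf1*fl/fl;DhhCre and at 240 to 572 CPM in the libraries labelled *Runx*-floxed, and 0 of the 13 markers was at 0 in any library. *Ptprc*, the leukocyte antigen CD45, was named after its values were seen and had the largest decrease of this list. It was at 298, 159 and 542 CPM against 41.6, 18.2 and 44.6 CPM, highest in the library that was highest for the members. The lowest libraries differed. *Ptprc* was lowest in replicate 2 of each group, and the summed members in *Nf1*fl/fl;DhhCre replicate 1 and in replicate 3 labelled *Runx*-floxed. T and NK cell markers summed to 17.3 to 57.5 CPM against 5.15 to 8.14 CPM, 1 of 8 tested fell, near the share of all genes (3 with edgeR, 4 with DESeq2, and 0 without *Nf1*fl/fl;DhhCre replicate 1 or 3 and without replicate 2 or 3 labelled *Runx*-floxed), and *Klrb1c*, *Nkg7*, *Cd3g*, *Gzma* and *Gzmb* were at 0 in at least 1 library and are named for that. Dendritic and B cell markers summed to 150 to 234 CPM against 52.4 to 67.3 CPM, and 3 of 8 tested fell. In fits on 5 libraries 1 of 8 fell, except without *Nf1*fl/fl;DhhCre replicate 2, where 3 fell. The fits with 1 passed 2.39% to 15.3% of all genes in either direction.

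Among cells without a blood origin, 6 of 7 fibroblast markers fell, beside the same 8.22%, or 1 without *Nf1*fl/fl;DhhCre replicate 1 and 3 without its replicate 3 or without replicate 2 or 3 labelled *Runx*-floxed (9199 to 9859 CPM in sum against 3413 to 5637 CPM) and 0 of 8 endothelial markers passed the limma-voom test (180 to 242 CPM against 177 to 300 CPM), while 3 were higher at an unadjusted p below 0.05, edgeR called 0 and DESeq2 called 1. General Schwann cell markers were present in each library (1644 to 1860 CPM against 2164 to 2994 CPM), and 4 of 9 rose, where 11.1% of all genes tested were higher, or 2 without *Nf1*fl/fl;DhhCre replicate 1. Sensory neuron markers rose for 12 of 12 as DEGs, where 8.03% of genes tested were higher DEGs, and summed to 1272 to 2589 CPM against 6295 to 14202 CPM. At the adjusted p alone, 1 of the 12 was higher without *Nf1*fl/fl;DhhCre replicate 1, 4 without its replicate 3 and 8 without replicate 2 labelled *Runx*-floxed. These 3 fits passed 2.39%, 7.54% and 7.45% of all genes in either direction, against 19.28% in the main fit. Skeletal muscle markers were uneven, with 2641 CPM in *Nf1*fl/fl;DhhCre replicate 2, 11541 CPM in replicate 2 labelled *Runx*-floxed and at most 71.0 CPM in the others. Without both of these libraries, an alternative chosen after the data were seen, 5 members passed (*H2-D1*, *B2m*, *Tap1*, *Psmb8* and *Psmb9*), where 4.56% of genes were lower DEGs. The part of these cell types and libraries in the class I values was not tested.

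**Figure D4:**
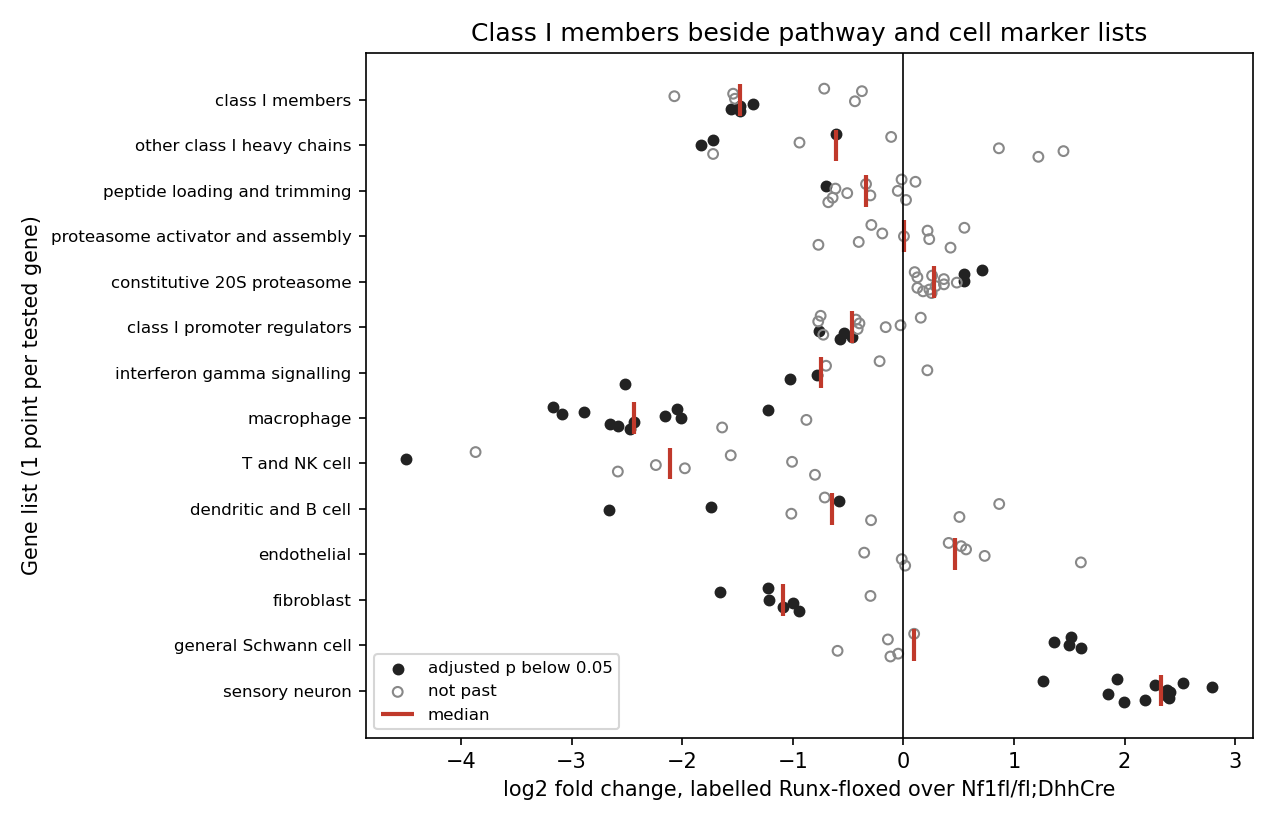
Log2 fold change of each tested gene in the class I list, the related pathway lists and the cell type marker lists (skeletal muscle is not drawn), labelled *Runx*-floxed over *Nf1*fl/fl;DhhCre; each point is a gene and each bar a list's median. The class I genes have a median of -1.48, the macrophage markers -2.43 and the sensory neuron markers 2.33.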

How the data were processed

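Bulk RNA-seq was measured in 6 mouse libraries, 3 per group. RNA was amplified (NuGEN Ovation) and made into Nextera XT libraries, and the authors aligned paired-end reads to mm10 with TopHat. The deposited counts are whole reads per gene that the authors obtained with featureCounts, without normalization; whether strand was used, and how reads aligned to several places were handled, is not given in the sources used here. Replicate numbers follow the order of the labels and pair no mice. Titles and deposited data name different mice, though of the same group, for some libraries.

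The filter was filterByExpr (at least 10 counts in enough libraries and 15 in all), the scaling was TMM and the model was limma-voom (R 4.3.3, edgeR 4.0.16, limma 3.58.1), with genotype as the only term and Benjamini-Hochberg adjustment over 15652 genes. Count ratios used a prior count of 0.5 in the test and an exact permutation test. A floor of 3 counts amounted to 0.179 to 0.247 CPM and covers counting error only, not the spread between mice. Library copies were looked for by a chi-square test, and none was found. As alternatives, edgeR's quasi-likelihood test, DESeq2 1.42.0, its size factors in limma-voom, library size only, CPM above 1 in 3 libraries, every gene with a count, sample quality weights and fits without each library in turn were run, and added after the data were seen were the *Tap1*/*Tap2* ratio and a fit without the 2 libraries rich in muscle genes. Positions are from GENCODE M21 and figures were drawn with matplotlib 3.10.9. The fit was also run on simulated data, and the outcome of that run is not given here.

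The genes named are the 10 members, the targeted genes, *Psmb5*, *Psmb6*, *Psmb7*, *Psme1*, *Psme2*, *Irf1*, *Ciita* and the 3 genes of each pathway list with the largest change; others are named as chosen after their values were seen, and 1 gene that meets this rule is not reported here. The members and lists were chosen with earlier results of these data known.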

Additional observations from a re-analysis of the deposited data

How the results depend on the processing

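The number of members past both thresholds, 4, was 7 with edgeR's quasi-likelihood test, 7 with DESeq2, 7 with sample quality weights and 5 with library size only; it was 4 with DESeq2 size factors, CPM above 1 in 3 libraries and every gene with a count. In the 6 fits on 5 libraries it lay between 1 and 7, while lower DEGs over all genes ranged from 181 to 1028 and higher DEGs from 181 to 1304. The cause was not tested. In these settings 10 of 10 members kept a negative log2 fold change. *H2-K1* ranged from -1.69 to -1.08 in fits on 5 libraries. The sign of 2 other genes was not stable in those fits: the log2 fold change of *Nf1* ranged from -0.18 to 0.043 (0.043 and 0.041 when replicate 1 of either group was left out, 0.00949 for replicate 2 labelled *Runx*-floxed), and that of *Psmb6* from -0.0059, when *Nf1*fl/fl;DhhCre replicate 1 was left out, to 0.30. The 3 subunit differences on the log2 scale ranged from -2.46 to -1.63 for *Psmb8*/*Psmb5*, from -2.62 to -1.78 for *Psmb9*/*Psmb6* and from -1.47 to -0.90 for *Psmb10*/*Psmb7*, and that of *Tap1*/*Tap2* from -1.45 to -0.97. With 3 libraries a group and 41 reads behind the lowest *Psmb9* value, smaller differences in the low members are limited by depth and by spread. No paired analysis was possible because the labels give no numbers shared between the groups.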

Other observations

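*H2-Q10* and *Cd1d1*, genes for class I-like molecules that were named after their values were seen, differed between the libraries labelled *Runx*-floxed. *H2-Q10* was at 9.09, 3.10 and 7.57 CPM in *Nf1*fl/fl;DhhCre, against 21.1, 17.5 and 3.83 CPM in the second group, and *Cd1d1*, which presents lipids to NKT cells, at 3.05, 1.07 and 3.72 CPM against 11.6, 12.99 and 1.25 CPM. In both genes replicates 1 and 2 labelled *Runx*-floxed were above each *Nf1*fl/fl;DhhCre library and replicate 3 was not. *H2-M2*, also named after its values were seen, had 9.24 CPM in *Nf1*fl/fl;DhhCre replicate 3, 0.486 CPM in replicate 1 and no reads in the other 4 libraries.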
